A study of Homo sapiens with 9 samples.

Results

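The enzymes that write and erase histone methylation, histone acetylation and DNA methylation were followed as 1 family of 77 genes in BL2 cells after stimulation with CD40L or LPS. Members were all genes whose array symbol starts with KDM, KMT, SETD, EZH, PRMT, HDAC, SIRT, KAT, DNMT or TET and a number, out of 19775 genes that at least 1 probe set names alone. The families held 18 KDM, 8 KMT, 9 SETD, 2 EZH, 8 PRMT, 11 HDAC, 7 SIRT, 7 KAT, 4 DNMT and 3 TET genes. Left out were KDM3A and 4 antisense transcripts, and 1 of the 77, KDM7A-DT, is a noncoding transcript that was kept because its symbol meets the rule. KDM5D, a Y-linked gene, is counted throughout without its values. A total of 210 probe sets name the members, between 1 and 11 each, and each member was read from the probe set with the highest mean over the arrays.

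The line BL2 comes from a human Burkitt lymphoma, a tumour of germinal centre B cells. Control cells were left without a stimulus, and the stimulated cells received recombinant CD40L, the T cell ligand of the receptor CD40, or LPS, a bacterial ligand of a Toll-like receptor, for 6 hrs. The labels give no time for the control cells, so whether time in culture differed between the groups is not known. Each of the 3 conditions had 3 HG-U133 Plus 2.0 arrays, 1 from each of 3 experimental batches labelled as biological replicates, 9 arrays in all. As all cells are 1 line, the replicates measure the spread between experiments and not between people. Values are levels on a generalised log2 scale, on which a difference of 1 is close to a 2-fold change for bright probe sets and is compressed for dim ones.

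Chromatin modifying enzymes work as writers and erasers of chemical marks. Lysine and arginine methyltransferases (KMT, SETD, EZH and PRMT) place methyl groups on histones and other proteins, and most KDM proteins remove them from lysine. Acetyltransferases (KAT) are countered by the deacetylases (HDAC and the NAD-dependent SIRT proteins). Most DNMT proteins methylate cytosine in DNA, and TET enzymes start the removal of this mark. In germinal centre B cells EZH2 and KMT2D are known for the mutations that change their function in lymphoma.

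The arrays were alike, with correlations of 0.994 to 0.997 between replicates and medians of 6.42 to 6.47. Of 10 B cell markers 9 were measured, all above the median probe set and 8 in the uppermost 10% of probe sets. Of these 9 markers 6 were called after CD40L and 5 after LPS, beside 7.95% and 3.10% of all genes. Their summed level was 96.6 to 97.4 in control arrays, 94.3 to 94.6 after CD40L and 94.8 to 95.4 after LPS. The part of this shift in the results on the enzymes was not tested. No marker of T and NK cells (9 measured), monocytes and macrophages (6) or fibroblasts (5) was called in either comparison, and their median levels were 6.34, 6.16 and 6.39 against 6.45 for the median probe set.

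Most of the enzymes had a mean level above the median probe set in BL2 cells. This was so for 74 of the 77 members and for 63.9% of all genes. The exceptions among the members were DNMT3L, KDM5B and SIRT4. Also above the median probe set were 3 of 9 markers of T and NK cells, 1 of 6 of monocytes and macrophages and 2 of 5 of fibroblasts. A place above it therefore does not by itself show that a gene is expressed. In the uppermost 10% of probe sets were 16 members, namely the DNA methyltransferase DNMT1, the Polycomb methyltransferase EZH2, the deacetylases HDAC1, HDAC2, HDAC9 and SIRT1, the acetyltransferase KAT6A, the demethylases KDM1A, KDM2B and KDM3B, the lysine methyltransferase SETD7 and the arginine methyltransferases PRMT1, PRMT3, PRMT5, PRMT6 and PRMT7. The plot of levels by family shows 1 bright probe set far above the rest for PRMT1, HDAC1 and DNMT1. A level also depends on the probe set, so that levels order signals and not amounts of transcript.

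**Figure D1:**
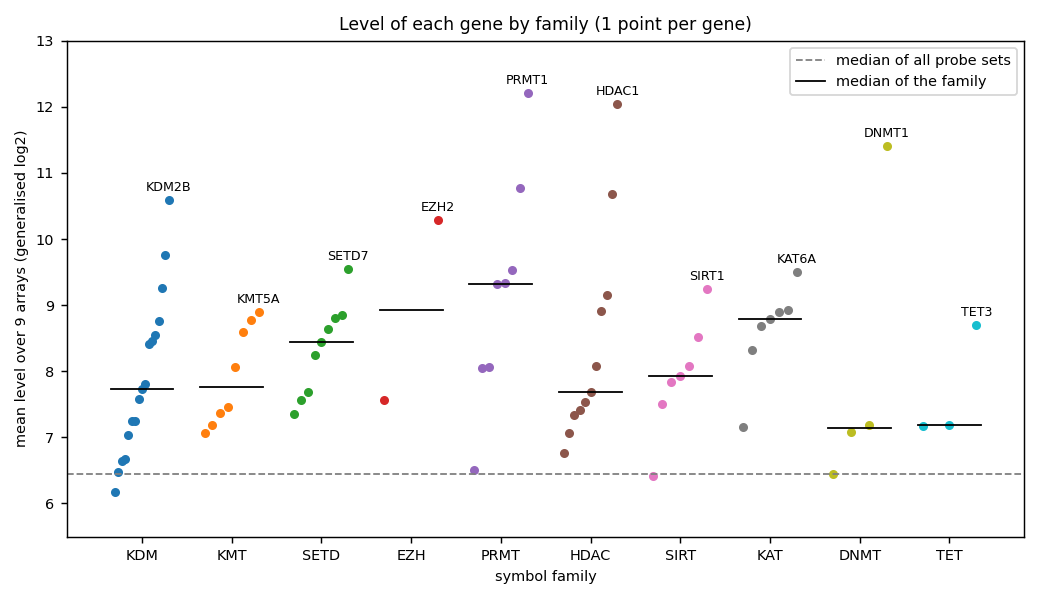
Mean level over the 9 arrays (generalised log2) of each member by symbol family, 1 point per gene without KDM5D, with the family median as a bar and the median of all probe sets as a dashed line. All but 3 of the points plotted lie above the dashed line at 6.45, and PRMT1, HDAC1 and DNMT1 reach 12.2, 12.0 and 11.4.

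After 6 hrs of CD40L the transcripts of 3 enzymes rose and those of 3 fell. PRMT3 (1.35-fold), PRMT6 (1.37-fold) and the lysine demethylase KDM1B (1.25-fold) were higher, while the methyltransferase KMT2C (0.811 of control), the deacetylase HDAC7 (0.833) and the mitochondrial sirtuin SIRT5 (0.863) were lower. After LPS PRMT3 rose (1.35-fold) and the demethylase KDM4B fell to 0.835 of control. Changes were called at an adjusted p of at most 0.05 in a limma fit over all 54613 probe sets with condition and batch as terms. All values come from RNA of whole cultures, in which fewer cells that express a gene and less of its RNA per cell cannot be told apart.

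With 6 of 77 members called after CD40L, the share of 7.79% lay near the 7.95% of all genes, each read from its brightest probe set. By direction, 3 higher calls compare with 5.03% of all genes and 3 lower calls with 2.92%. After LPS the 2 calls, 2.60% of the members, compare with 3.10% of all genes, the 1 higher call with 1.62% and the 1 lower call with 1.48%. At an unadjusted p under 0.05, 16 members were higher and 8 lower after CD40L, which is 31.2% of the members beside 19.9% of all genes. After LPS 11 were higher and 10 lower, 27.3% beside 15.0%. The members were brighter, with a median level of 8.08 beside 6.78 for all genes, and changes of dim probe sets are compressed. Both comparisons also used the same controls. The part of brightness in these larger shares was not tested.

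Shifts were small throughout. The median log2FC over the members was 0.0089 after CD40L and 0.013 after LPS, beside 0.0051 and 0.0018 over all genes, and single members ranged from −0.30 to 0.46 after CD40L and from −0.26 to 0.43 after LPS. In batches 1 to 3 the median over the members was −0.034, 0.083 and −0.050 after CD40L. It was 0.016, 0.056 and −0.038 after LPS, so its sign differed between batches in both comparisons. No member reached a log2FC of 0.5 in size, which 1.15% of all genes did after CD40L and 0.384% after LPS. The median standard error was 0.065. A 95% confidence interval lay wholly within a change of 1.5-fold for 76 of 77 members after CD40L and for all 77 after LPS, and the exception was PRMT6 after CD40L. This bound holds on the generalised log2 scale, where changes of dim probe sets are compressed. For dim members the true change may be larger.

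**Figure D2:**
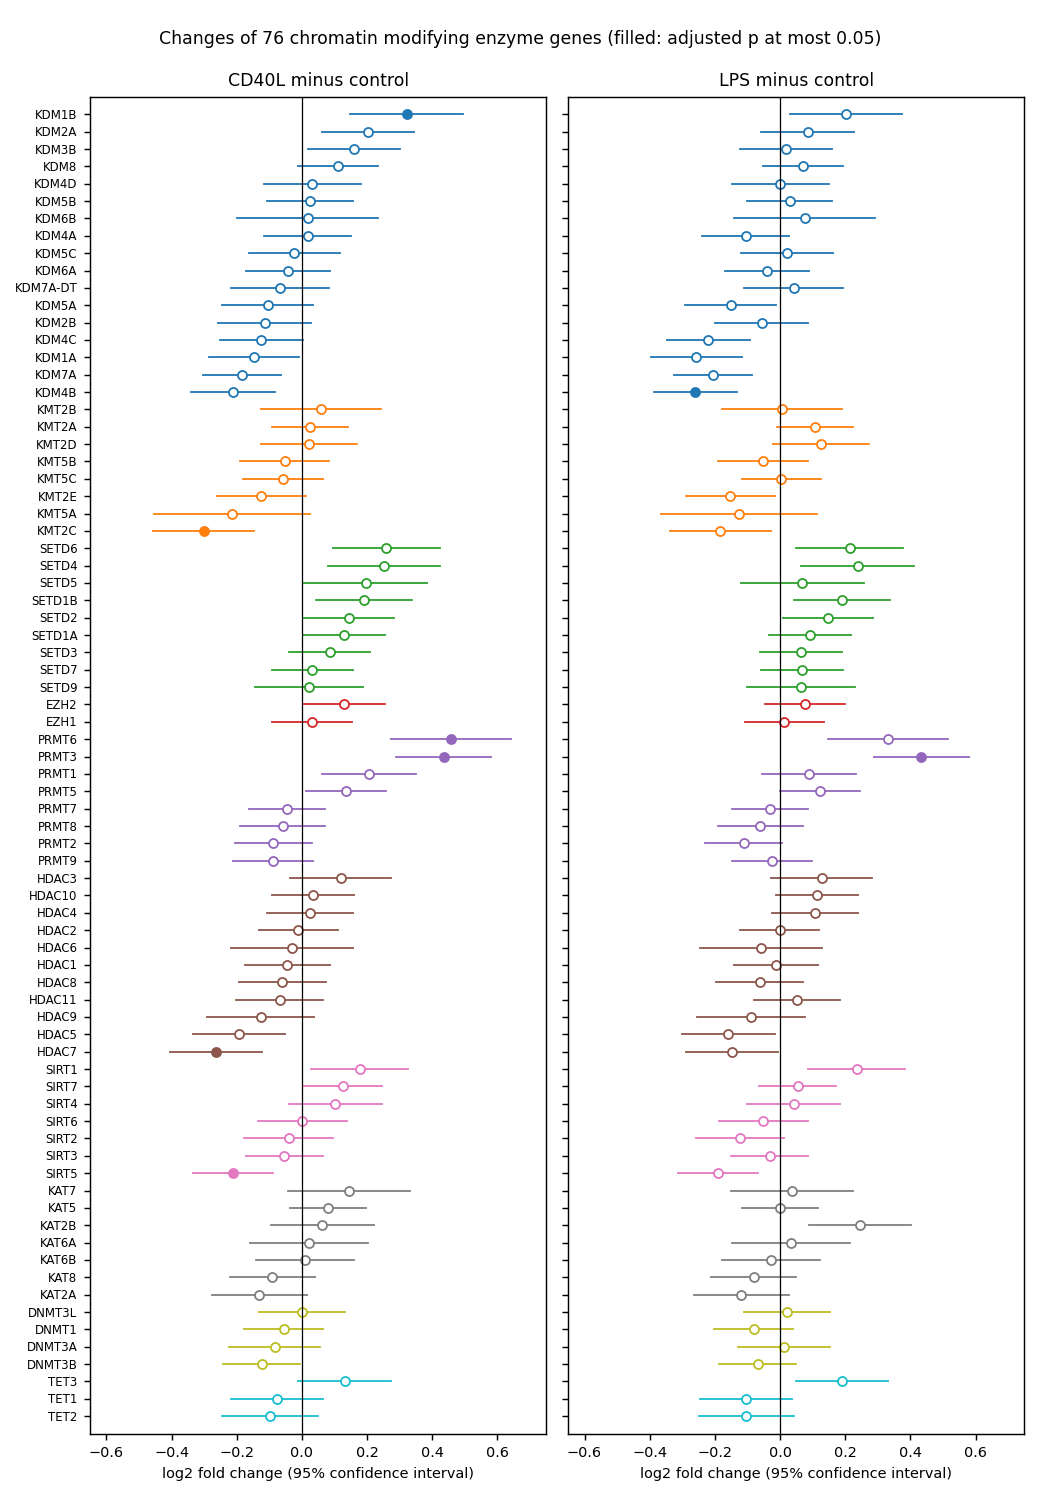
Log2 fold change of 76 members (KDM5D not plotted) after CD40L and after LPS, grouped and coloured by symbol family, with 95% confidence intervals as bars and filled points for an adjusted p of at most 0.05. The filled points are PRMT3, PRMT6, KDM1B, KMT2C, HDAC7 and SIRT5 after CD40L and PRMT3 and KDM4B after LPS, and all 9 SETD genes lie right of 0 in both panels.

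Several calls depended on how batches and arrays entered the fit. Without the batch term 1 member stayed called after CD40L (PRMT3) and 1 after LPS (PRMT3 again), and with the batch as a random effect 2 and 1. On quantile-normalized values 3 members were higher and 8 lower after CD40L, and 2 higher and 5 lower after LPS, where the share of higher calls among all probe sets moved from 66.5% to 50.2% after CD40L. Called after CD40L were 3 members without replicate 1, without replicate 3 and without any 1 of the 3 CD40L arrays. After LPS the count was 0 without replicate 1 or LPS array 1, 1 without replicate 3, LPS array 2 or LPS array 3, 4 without replicate 2 and 6 without control array 1.

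Among the 8 arginine methyltransferases, PRMT3 and PRMT6 carried the largest changes of the whole family. PRMT3 methylates a protein of the small ribosomal subunit and sits largely in the cytoplasm. Its level was 9.34, 9.11 and 9.29 in control batches 1 to 3, then 9.70, 9.76 and 9.57 after CD40L and 9.82, 9.60 and 9.61 after LPS. Every stimulated array lay above every control array. The log2FC was 0.43 after CD40L (SE 0.069, limma adjusted p = 0.00101) and 0.43 after LPS (SE 0.069, adjusted p = 0.00296). Both values came from the same controls. The call after CD40L was kept in each of 19 other fits (adjusted p 0.00034 to 0.016), and that after LPS was lost only without replicate 1 (adjusted p = 0.0742) and without LPS array 1 (adjusted p = 0.0569). Fits with the probe set of largest change or the mean of all probe sets left both log2FC of PRMT3 unchanged. They therefore could not test the choice of probe set for this gene.

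PRMT6 is a nuclear enzyme that places asymmetric dimethylarginine on the tail of histone H3 and thereby counters a methyl mark of active promoters. Levels were 9.45, 8.89 and 8.85 in control arrays, 9.73, 9.66 and 9.18 after CD40L and 9.51, 9.51 and 9.16 after LPS. Control array 1 stood high, so that the groups overlapped, but within each batch both stimulated arrays were above their control. The log2FC was 0.46 after CD40L (SE 0.087, limma adjusted p = 0.00392) and 0.33 after LPS (SE 0.087, adjusted p = 0.0646). The value after LPS was 0.18 without replicate 2 or control array 2 (adjusted p = 0.285 and 0.259) and 0.44 without control array 1 (adjusted p = 0.0161). The batch term mattered here. Without it the adjusted p after CD40L was 0.232, and without replicate 2 the log2FC was 0.30 with an adjusted p of 0.00996.

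The other arginine methyltransferases moved less. PRMT1, the main source of asymmetric dimethylarginine in cells, had a log2FC of 0.21 after CD40L (limma adjusted p = 0.101) and 0.089 after LPS (adjusted p = 0.723), with its 3 CD40L arrays at 12.20 to 12.39 above the controls at 12.05 to 12.18. PRMT5, which forms symmetric dimethylarginine, had 0.13 and 0.12 (adjusted p = 0.248 and 0.425). PRMT2, PRMT7, PRMT8 and PRMT9 lay between −0.11 and −0.025 in both comparisons.

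**Figure D3:**
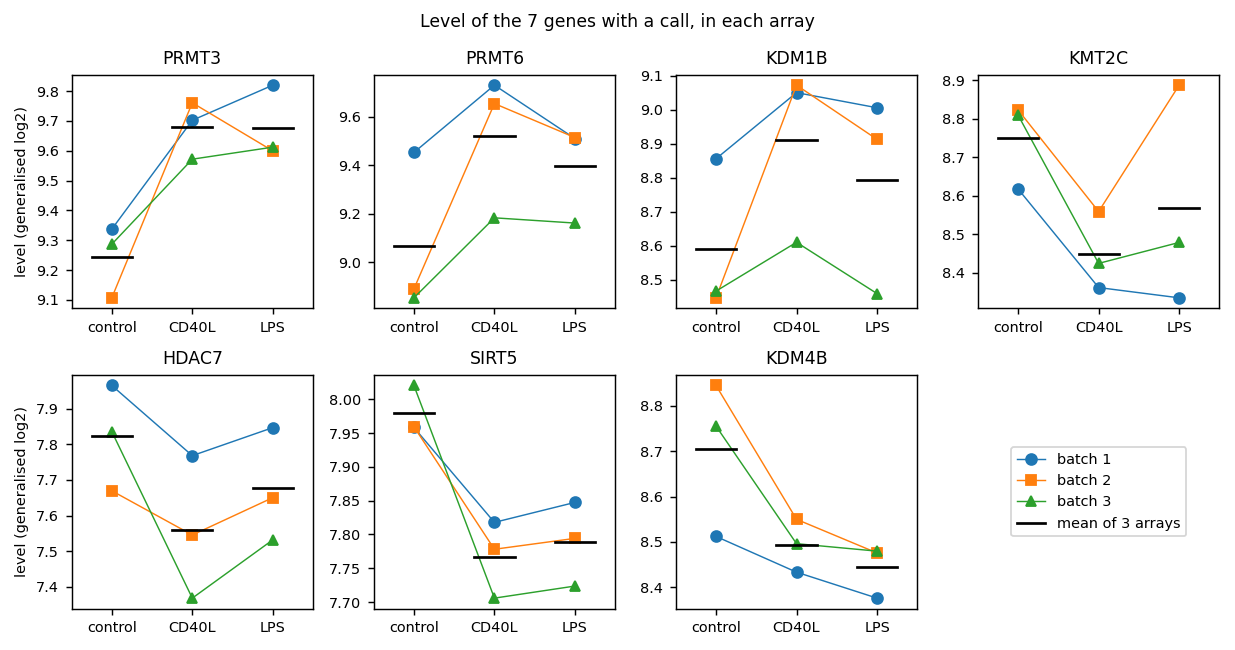
Level (generalised log2) of the 7 called members in each of the 9 arrays, with arrays of 1 batch joined by a line and the mean of 3 arrays as a black bar; the vertical axes differ and do not start at 0. PRMT3 rises with both stimuli in all batches from a control mean of 9.24 to means of 9.68 and 9.68, and for KMT2C the LPS array of batch 2 stands at 8.89, above all controls.

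The promoters of the 2 arginine methyltransferase genes called and of the 1 gene called lower after LPS are shown, as these members had the largest rises and the only fall called after LPS. The bases are the 250 upstream of the gene start from the RefSeq table of GRCh38.p14, on the plus strand, with CACGTG in capitals. PRMT3 is at chr11:20387466-20387715, PRMT6 at chr1:107056424-107056673 and KDM4B at chr19:4968863-4969112.
PRMT3: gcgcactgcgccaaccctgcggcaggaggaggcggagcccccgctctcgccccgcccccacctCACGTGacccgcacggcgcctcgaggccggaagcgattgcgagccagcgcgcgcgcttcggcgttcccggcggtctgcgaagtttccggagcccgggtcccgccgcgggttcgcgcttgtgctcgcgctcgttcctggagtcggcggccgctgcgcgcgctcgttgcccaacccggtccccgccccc
PRMT6: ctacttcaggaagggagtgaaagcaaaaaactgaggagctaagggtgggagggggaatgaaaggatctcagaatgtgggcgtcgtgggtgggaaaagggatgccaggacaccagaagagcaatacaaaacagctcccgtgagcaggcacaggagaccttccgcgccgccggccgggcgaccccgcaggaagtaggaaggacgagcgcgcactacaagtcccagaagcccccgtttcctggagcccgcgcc
KDM4B: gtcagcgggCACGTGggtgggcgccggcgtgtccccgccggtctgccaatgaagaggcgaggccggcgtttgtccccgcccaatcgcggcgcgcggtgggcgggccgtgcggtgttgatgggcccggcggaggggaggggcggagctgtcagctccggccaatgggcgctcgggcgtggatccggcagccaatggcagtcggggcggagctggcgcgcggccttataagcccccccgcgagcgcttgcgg
CACGTG, the E-box letters bound by MYC and related factors, which read the same on both strands, began 187 bases before the start of PRMT3 and 241 bases before that of KDM4B, and it was absent from the PRMT6 window. The motif stood in 2 of the 7 called members, in 10 of the 71 members with an entry in the table (14.1%) and in 7.83% of 15384 array genes. The NF-κB consensus, searched on both strands, stood in 0 of the 7, 7 of the 71 (9.86%) and 5.79% of array genes. CpG pairs numbered 43 for PRMT3, 16 for PRMT6 and 36 for KDM4B, beside a median of 23 over members and 18 over array genes. These are matches of letters and not measured binding.

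Lysine demethylases split by gene. KDM1B, a flavin-dependent demethylase of histone H3 that in the germ line is needed to set DNA methylation imprints, read 8.86, 8.45 and 8.47 in control arrays, 9.05, 9.07 and 8.61 after CD40L and 9.01, 8.91 and 8.46 after LPS. Groups overlapped, and the CD40L array was above its control in each batch. The log2FC was 0.32 after CD40L (SE 0.081, limma adjusted p = 0.0276) and 0.20 after LPS (adjusted p = 0.307). Without the batch term the first adjusted p was 0.432. The call was kept only without control array 1 or control array 3 among 9 fits that left arrays out, and the log2FC fell to 0.17 without replicate 2 (adjusted p = 0.236) and 0.18 without control array 2 (adjusted p = 0.153). A dimmer KDM1B probe set had 0.26 after CD40L (adjusted p = 0.0685) and 0.055 after LPS.

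KDM4B, which removes methyl groups from a heterochromatic lysine of histone H3, read 8.51, 8.84 and 8.75 in control arrays, 8.43, 8.55 and 8.50 after CD40L and 8.38, 8.48 and 8.48 after LPS. All LPS arrays lay below all controls, and 1 CD40L array lay above the lowest control. It fell by 0.26 on the log2 scale after LPS (SE 0.060, limma adjusted p = 0.0341), and the log2FC after CD40L was −0.21 (adjusted p = 0.0544). The LPS call was lost without the batch term (adjusted p = 0.227) and in 8 of 9 fits that left arrays out, all but the one without control array 1. The second brightest of its 8 probe sets read −0.22 after CD40L (adjusted p = 0.033) and −0.26 after LPS (adjusted p = 0.0218), and the other 6, dimmer, lay between −0.031 and 0.12.

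Further demethylases had values short of the threshold. KDM1A, the other flavin-dependent demethylase and a partner of HDAC1 and HDAC2 in a corepressor complex, read 9.83, 9.88 and 9.96 in control arrays and 9.64, 9.55 and 9.72 after LPS, with no overlap (log2FC −0.26, limma adjusted p = 0.0565). Its log2FC after CD40L was −0.15 (adjusted p = 0.278). After LPS KDM4C had −0.22 and KDM7A −0.21 (adjusted p = 0.0761 and 0.0782), and after CD40L KDM7A had −0.18 (adjusted p = 0.0743) and KDM2A 0.20 (adjusted p = 0.10). KDM6A and KDM6B, which remove the Polycomb mark, had −0.043 and 0.018 after CD40L and −0.040 and 0.076 after LPS.

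Of the lysine methyltransferases, KMT2C was the only one called by its brightest probe set. KMT2C and KMT2D are the enzymes of 2 related complexes that methylate histone H3 at enhancers. KMT2C read 8.62, 8.82 and 8.81 in control arrays, 8.36, 8.56 and 8.42 after CD40L and 8.34, 8.89 and 8.48 after LPS. The CD40L arrays lay below all controls, while LPS array 2 lay above them. It fell by 0.30 on the log2 scale after CD40L (SE 0.073, limma adjusted p = 0.0213), and after LPS the log2FC was −0.18 (adjusted p = 0.302). With replicates or arrays left out the value after LPS ran from −0.11 without replicate 3 (adjusted p = 0.780) to −0.31 without replicate 2 (adjusted p = 0.0128). Without the batch term the adjusted p after CD40L was 0.265, and the call held without replicate 2, CD40L array 1 or control array 2 and not in the other 6 fits that left arrays out. Its 5 other probe sets were dimmer, at −0.13 to 0.034 after CD40L, with none called. KMT2D read 7.18, 7.40 and 7.37 in control arrays, with log2FC of 0.022 after CD40L (adjusted p = 0.944) and 0.13 after LPS (adjusted p = 0.540).

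SETD genes leaned upward without a call. All 9 had a log2FC above 0 after both stimuli, with medians of 0.14 after CD40L and 0.091 after LPS. Both comparisons used the same controls, so they are not separate observations. Higher in every batch were 4 of the 9 after CD40L and 6 after LPS, beside 20.1% and 18.1% of all genes. Of the other symbol families, only EZH, with 2 genes, had all members above 0 after both stimuli. On quantile-normalized values 7 of 9 were above 0 after CD40L and 9 after LPS. SETD6, which methylates the NF-κB subunit RelA, read 8.22, 7.81 and 8.26 in control arrays and 8.52, 8.30 and 8.25 after CD40L (log2FC 0.26, limma adjusted p = 0.0676), and in batch 3 the 2 arrays differed by −0.016. SETD4 read 7.67, 7.44 and 7.49 in control arrays and 7.63, 7.88 and 7.80 after LPS (log2FC 0.24, adjusted p = 0.192). For SETD1A and SETD1B, enzymes that methylate histone H3 at promoters, all stimulated arrays lay above all controls, with log2FC of 0.13 and 0.19 after CD40L (adjusted p = 0.307 and 0.148) and 0.091 and 0.19 after LPS (adjusted p = 0.650 and 0.241).

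EZH2, the catalytic subunit of Polycomb repressive complex PRC2 and highly active in germinal centre B cells, was bright and differed little between conditions. It read 10.24, 10.20 and 10.23 in control arrays, 10.45, 10.34 and 10.27 after CD40L and 10.39, 10.21 and 10.29 after LPS. CD40L arrays lay above all controls by a little. The log2FC was 0.13 after CD40L (SE 0.058, limma adjusted p = 0.280, 95% interval 0.0069 to 0.25) and 0.076 after LPS (adjusted p = 0.725). EZH1, the alternative subunit, had 0.031 and 0.013 (adjusted p = 0.890 and 0.975).

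Among the deacetylases 1 HDAC and 1 SIRT gene were called after CD40L. HDAC7, a class IIa deacetylase that acts with transcription factors in lymphocytes, read 7.97, 7.67 and 7.84 in control arrays, 7.77, 7.55 and 7.37 after CD40L and 7.85, 7.65 and 7.53 after LPS. Groups overlapped, and both stimulated arrays were below their control in every batch. It fell by 0.26 on the log2 scale after CD40L (SE 0.067, limma adjusted p = 0.0275), and after LPS the log2FC was −0.15 (adjusted p = 0.401). The CD40L call was lost without the batch term (adjusted p = 0.303) and held without replicate 2 or control array 2, and not in the other 7 fits that left arrays out. The log2FC was −0.16 without replicate 3 and −0.17 without control array 3 (adjusted p = 0.295 and 0.175). HDAC5, of the same class, had −0.19 after CD40L (adjusted p = 0.121) and −0.16 after LPS (adjusted p = 0.345).

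The class I enzymes HDAC1 and HDAC2, the catalytic cores of the Sin3 and NuRD corepressors, stayed close to control. HDAC1 read 11.96, 12.07 and 12.13 in control arrays, 11.99, 12.04 and 12.00 after CD40L and 12.02, 11.95 and 12.16 after LPS, and the groups overlapped. Its log2FC was −0.044 after CD40L (95% interval −0.17 to 0.085) and −0.013 after LPS (−0.14 to 0.12). HDAC2 had −0.012 (−0.13 to 0.11) and −0.00074 (−0.12 to 0.12). Of the 11 HDAC genes 3 were above 0 after CD40L and 4 after LPS.

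SIRT5, a mitochondrial enzyme that strips succinyl and malonyl groups from lysine, had the tightest groups among the calls. It read 7.96, 7.96 and 8.02 in control arrays, 7.82, 7.78 and 7.71 after CD40L and 7.85, 7.79 and 7.72 after LPS, with all stimulated arrays below all controls. It fell by 0.21 on the log2 scale after CD40L (SE 0.058, limma adjusted p = 0.0417), and after LPS the log2FC was −0.19 (adjusted p = 0.124). The call was lost without the batch term (adjusted p = 0.0652) and in 8 of 9 fits that left arrays out, all but the one without control array 2. The other 5 probe sets of SIRT5 were dimmer, at −0.085 to 0.027 after CD40L. SIRT1, the nuclear sirtuin, read 9.21, 9.12 and 8.97 in control arrays and 9.27, 9.45 and 9.29 after LPS, with no overlap, and its log2FC was 0.18 after CD40L (adjusted p = 0.199) and 0.24 after LPS (adjusted p = 0.114).

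No acetyltransferase was called among the 7 KAT genes. At an unadjusted p under 0.05 none passed after CD40L, and after LPS KAT2B alone did, a coactivator acetyltransferase with readings of 6.91, 6.96 and 7.28 in control arrays and 7.23, 7.30 and 7.35 after LPS (log2FC 0.25, limma adjusted p = 0.121). KAT7, which acetylates histones at replication origins, had the largest log2FC of the 7 after CD40L, 0.14 (adjusted p = 0.50), of which batch 2 gave 0.53 and batches 1 and 3 gave −0.053 and −0.038.

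The DNA methylation enzymes moved little. DNMT1, which copies methylation to the new strand in dividing cells, read 11.28, 11.47 and 11.61 in control arrays, 11.29, 11.33 and 11.56 after CD40L and 11.29, 11.31 and 11.51 after LPS, so that the batches differed more than the conditions. Its log2FC was −0.056 (95% interval −0.18 to 0.065) and −0.081 (−0.20 to 0.040). The de novo enzymes DNMT3A and DNMT3B had −0.084 and −0.12 after CD40L (limma adjusted p = 0.644 and 0.282) and 0.013 and −0.069 after LPS (adjusted p = 0.980 and 0.750). Among the TET dioxygenases, TET3 read 8.51, 8.53 and 8.73 in control arrays and 8.66, 8.92 and 8.77 after LPS, with a log2FC of 0.13 after CD40L (adjusted p = 0.376) and 0.19 after LPS (adjusted p = 0.207). TET1 had −0.077 and −0.10 (adjusted p = 0.694 and 0.642) and TET2 −0.097 and −0.10 (adjusted p = 0.593 and 0.667). None of the 4 DNMT and 3 TET genes was called, and at an unadjusted p under 0.05 DNMT3B after CD40L and TET3 after LPS were the ones that passed.

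Across the whole family, 10 members after CD40L had all arrays above all controls and 7 had all below, 22.1% against 19.5% of all genes. After LPS the numbers were 6 and 8, 18.2% against 15.7%. The share of non-overlapping members was near that of all genes in both comparisons.

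CD40L and LPS were then compared with each other. No member was called, where 0.642% of all genes were (0.491% higher and 0.152% lower with CD40L) (limma, lowest adjusted p among members 0.867). At an unadjusted p under 0.05, KDM3B was higher with CD40L (log2 difference 0.14) and KAT2B lower (−0.18), beside 6.27% of all genes. Arrays of the 2 stimuli did not overlap for 3 members, 3.90% against 9.87% of all genes. For PRMT3 the difference was 0.0011 with a 95% interval of −0.15 to 0.15, for PRMT6 0.13 (−0.056 to 0.31), for KMT2C −0.12 (−0.27 to 0.036), for HDAC7 −0.12 (−0.26 to 0.026), for KDM1B 0.12 (−0.055 to 0.29), for KDM4B 0.049 (−0.079 to 0.18) and for SIRT5 −0.021 (−0.14 to 0.10). All 77 intervals lay within a difference of 1.5-fold on the generalised log2 scale. A call after 1 stimulus and none after the other was therefore in no case a tested difference between the stimuli.

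Probe sets of 1 gene did not always move together. KMT5A, which places a single methyl group on histone H4, has 4 probe sets. The brightest had a log2FC of −0.21 after CD40L (limma adjusted p = 0.395) with single batches from −0.65 to 0.081, while the next had 0.39 (adjusted p = 0.0243) and the other 2 had 0.12 and 0.19. For SETD5 the brightest of 5 had 0.20 (adjusted p = 0.294) and a dimmer one 0.42 (adjusted p = 0.0103). When each gene was read from the probe set that changed most, 9 members were called after CD40L and 2 after LPS, and with the mean of all probe sets 3 and 1. These means were −0.11 for KMT2C, −0.14 for HDAC7 and −0.046 for SIRT5 after CD40L and −0.046 for KDM4B after LPS, none of them called. PRMT3 and PRMT6 had the same log2FC in all these readings, so the choice of probe set did not test their calls.

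**Figure D4:**
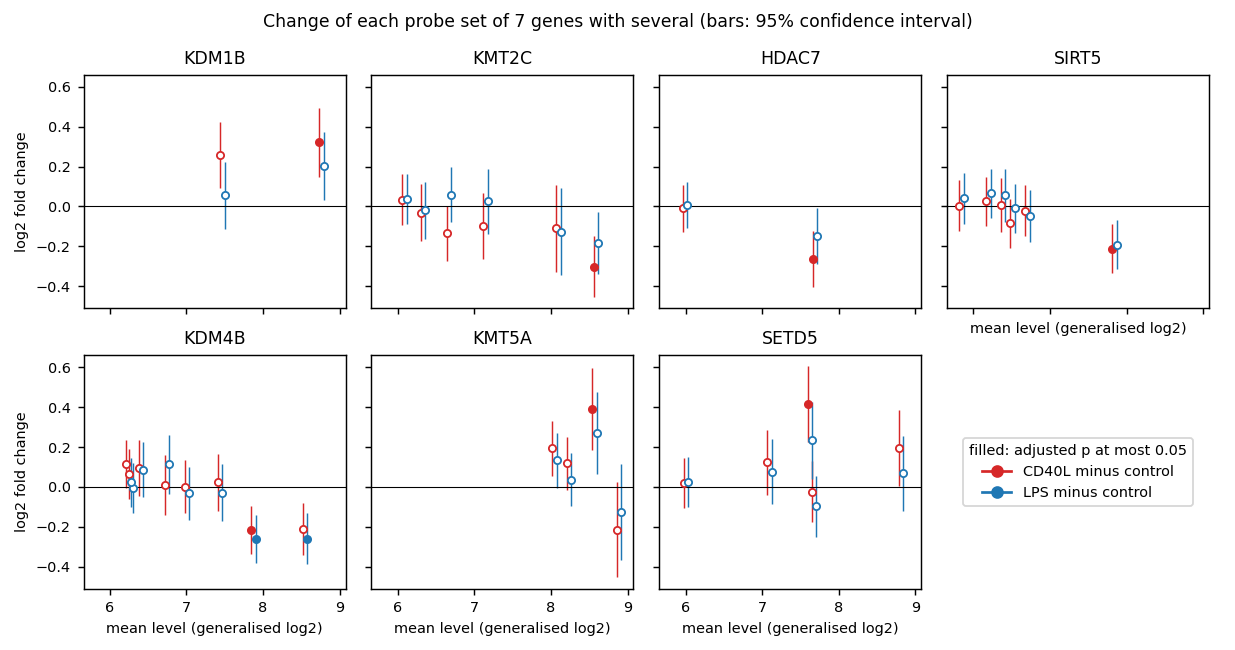
Log2 fold change of every probe set of 7 members against its mean level (both on the generalised log2 scale), after CD40L in red and after LPS in blue, with 95% confidence intervals and filled points for an adjusted p of at most 0.05. The changes of KMT2C, SIRT5, HDAC7 and KDM4B lie in the brightest probe sets, while the brightest KMT5A probe set lies below 0 (−0.21 after CD40L) and the others above.

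The partners of these enzymes were read from 9 lists of 206 genes, of which 189 were measured. After CD40L 13 were higher and 10 lower (12.2%, beside 7.95% of all genes), and after LPS 7 and 5 (6.35%, beside 3.10%). The counts fell to 11 and 2 without the batch term, ranged from 10 to 37 and from 2 to 17 over the 10 other ways of processing, and from 10 to 31 and from 0 to 11 with replicates or arrays left out. With any 1 replicate or array left out, the CD40L calls of CHD1, JADE3, MAT2A, PCGF2, PHF19 and PRDM15 were kept, and the other 17 after CD40L and all 12 after LPS were lost in at least 1 such fit. MBD4 after CD40L and RIOX2 after LPS were lost in all 9 such fits. Lost in 8 of the 9 were ING4, L3MBTL2, MTA3, MTF2 and SMYD5 after CD40L and MAT2A and PWWP2A after LPS. Between CD40L and LPS 0 were called, or up to 2 under the other ways of processing. Single lists, of 10 to 40 measured genes, had 0% to 20% called after CD40L and 0% to 19.0% after LPS.

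In Polycomb complexes the core of PRC2 was not called, and after CD40L 1 of 10 measured partners of EZH1 and EZH2 was higher and 1 lower. That is 20% of the list, and 10% were called after LPS, beside 7.95% and 3.10% of all genes. PHF19 rose by 0.40 after CD40L (limma adjusted p = 0.000857) and by 0.28 after LPS (adjusted p = 0.0269), and MTF2, a protein of the same kind, fell by 0.23 after CD40L (adjusted p = 0.0308). The MTF2 call was lost in 8 of 9 fits that left replicates or arrays out, and the mean of its probe sets was −0.014 (adjusted p = 0.943). Of 14 PRC1 subunits PCGF2 was the 1 called, and it fell by 0.42 after CD40L (adjusted p = 0.000255) and by 0.30 after LPS (adjusted p = 0.0106). This 1 call is 7.14% of the PRC1 list in each comparison. None of the 14 COMPASS partners of the KMT2 enzymes was called in either comparison.

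Deacetylase corepressors had 3 members higher and 2 lower of 32 after CD40L. That is 15.6% of the list, and 3.1% were called after LPS, beside 7.95% and 3.10% of all genes. The NuRD subunits GATAD2A and MBD3 rose by 0.46 and 0.27 (limma adjusted p = 0.00784 and 0.0460). With replicates or arrays left out their values ran from 0.26 to 0.64 and from 0.15 to 0.39, both lowest without replicate 2, and the means of their probe sets were 0.20 and 0.13 (adjusted p = 0.0519 and 0.290). The MBD3 call was lost in 7 of 10 other ways of processing. MTA3, a NuRD subunit of germinal centre B cells, fell by 0.24 (adjusted p = 0.0313). TBL1X, of the NCoR corepressor, fell by 0.29 after CD40L (adjusted p = 0.00562) and by 0.31 after LPS (adjusted p = 0.00987), the 1 call of this list after LPS. Among 40 partners of the acetyltransferases, JADE3 and ING5, found in complexes of KAT7, rose by 0.40 and 0.32 after CD40L (adjusted p = 0.00116 and 0.0226), MCRS1 rose by 0.27 (adjusted p = 0.0315) and ING4 fell by 0.23 (adjusted p = 0.0404). Without replicate 2 the values of ING5 and MCRS1 were 0.17 and 0.15 (adjusted p = 0.229 and 0.336). The list had 2 lower calls in all after CD40L and 1 after LPS, where the SAGA subunit SUPT3H fell by 0.33 (adjusted p = 0.00974). Called in both directions together were 12.5% of this list after CD40L and 2.5% after LPS.

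Genes that read DNA methylation or supply it gave 1 higher and 2 lower calls of 21 after CD40L and 3 higher and 1 lower after LPS. These are 14.3% and 19.0% of the list, beside 7.95% and 3.10% of all genes. MAT2A, which makes the methyl donor S-adenosylmethionine, rose by 0.36 after CD40L (limma adjusted p = 0.00418) and by 0.29 after LPS (adjusted p = 0.0404). GADD45A, a stress gene also tied to DNA demethylation, fell by 0.28 and by 0.29 (adjusted p = 0.0154 and 0.0252), and the glycosylase MBD4 fell by 0.20 after CD40L (adjusted p = 0.0384). After LPS GADD45B rose by 0.30 (adjusted p = 0.0349) and the methyl-CpG binding protein ZBTB38 by 0.26 (adjusted p = 0.0302). With replicates or arrays left out, the GADD45A call was lost in 5 of 9 fits after CD40L and in 7 of 9 after LPS. The LPS calls of GADD45B and ZBTB38 were each lost in 6 of 9.

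Of 25 readers of methylated or acetylated lysine, 3 rose after CD40L and 2 after LPS, and none fell. These are 12% and 8% of the list, beside 7.95% and 3.10% of all genes. Lower calls made up only 2.92% and 1.48% of all genes. The remodeller CHD1 rose by 0.37 and by 0.30 (limma adjusted p = 0.00225 and 0.0234), BRD7 by 0.36 and L3MBTL2 by 0.22 after CD40L (adjusted p = 0.00454 and 0.0388) and PWWP2A by 0.24 after LPS (adjusted p = 0.0348). Outside the symbol rule, 1 of 20 further SET domain genes rose after CD40L and 2 fell. That is 15% of the list, and 5% were called after LPS. SMYD5 rose by 0.27 (adjusted p = 0.0416) and had 0.15 without replicate 2 (adjusted p = 0.342), SETDB2 fell by 0.26 (adjusted p = 0.00934) and PRDM15 fell by 0.42 (adjusted p = 0.000281), and SETDB2 also fell by 0.23 after LPS (adjusted p = 0.0438). Of 15 other writers and erasers the oxygenase RIOX2 rose by 0.30 after CD40L and by 0.25 after LPS (adjusted p = 0.00636 and 0.0374). This 1 call is 6.67% of that list in each comparison.

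The choice of probe set touched several of these partners. With the mean of all probe sets of a gene, the log2FC after CD40L was 0.14 for ING5, −0.15 for MTA3, −0.10 for MBD4 and −0.078 for SETDB2, none of them called. After LPS it was 0.19 for GADD45B, 0.085 for ZBTB38, 0.15 for PWWP2A, −0.21 for SUPT3H, −0.15 for TBL1X, −0.18 for PCGF2 and −0.051 for SETDB2, again without a call. PCGF2, PRDM15 and TBL1X had −0.21, −0.20 and −0.16 after CD40L and stayed called.

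The steadiness of the 8 calls on the enzymes themselves is shown over all other fits. PRMT3 after CD40L stayed below the threshold in each of them, and the other 7 crossed it in at least 2. Other choices of probe set left the log2FC of PRMT3 and PRMT6 unchanged, unlike those of KMT2C, HDAC7, SIRT5 and KDM4B.

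**Figure D5:**
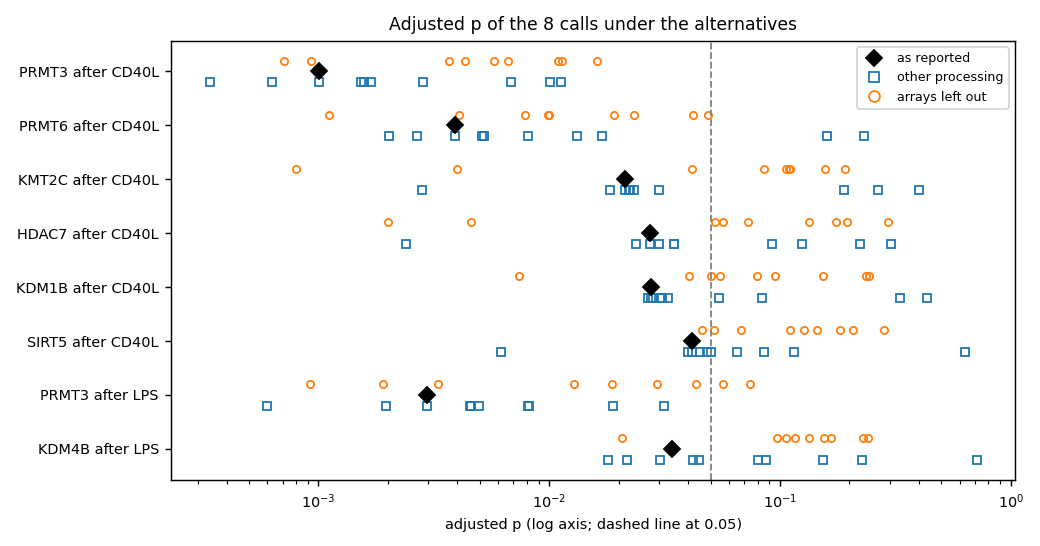
Adjusted p (log axis) of the 8 calls as reported (diamonds), under 10 other ways of processing (squares) and with arrays left out in 9 ways (circles), with the threshold of 0.05 as a dashed line. PRMT3 after CD40L keeps all its points left of the line with a highest value of 0.016, and the highest value for PRMT6 is 0.232.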

How the data were processed

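The authors corrected and normalised the array intensities by variance stabilisation, and median polish gave 1 value per probe set. They deposited generalised log2 values, which were used as given. Of 54675 probe sets, 62 AFFX controls were left out. Log2 fold changes, standard errors and two-sided p-values came from limma 3.58.1 (lmFit, eBayes) in R 4.3.3 over all 9 arrays. Condition and batch were terms of the model, since the study's methods pair the experiments, and the Benjamini-Hochberg adjustment ran over 54613 probe sets. Degrees of freedom were 4 residual and 11.6 prior. The labels number the batches, and same-batch deviations correlated at a mean of 0.217, below 0.1 for 2 of 9 pairs. Both of these pairs were negative and held control array 2, at −0.18 with CD40L array 2 and −0.040 with LPS array 2. The CD40L and LPS arrays of batch 2 correlated at 0.18. The fit with a random batch put the correlation within batches at 0.072. By the platform annotation 41097 probe sets name 1 gene, 1801 several and 11777 none.

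The members, the 9 related lists and the markers were chosen with earlier results of these data known. Named were all called members, 13 enzymes of interest whatever their values, the largest change of each symbol family, and up to 4 called genes of each list and comparison. PRMT1, PRMT5, KDM1A, KDM2A, KDM4C, KDM6B, KDM7A, SETD1A, SETD1B, KDM3B, KMT5A and SETD5 were added after their values were seen. Confidence intervals are at 95%. Tests of single genes outside the fit were not made, since 3 arrays against 3 cannot go below an exact p of 0.1. The number of arrays limits the precision, and dim probe sets can hide a change. Alternatives were a fit without the batch, a random batch (statmod 1.5.0), robust eBayes, an intensity trend, median centring or quantile normalization, removal of dim probe sets, fits of 2 groups alone, other choices of probe set, and each replicate or array left out.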

Additional observations from a re-analysis of the deposited data

How the results depend on the processing

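Without the replicate block 1 member was called after CD40L (1 higher, 0 lower) and 1 after LPS (0 lower). With the block as a random effect 2 were called after CD40L (1 higher, 1 lower) and 1 after LPS (0 lower), and with only the groups compared 3 (2 higher, 1 lower) and 1 (0 lower). Quantile normalization gave 11 after CD40L (8 lower) and 7 after LPS (2 higher, 5 lower). Under median centring 2 members were lower after CD40L, where 5 were called. An intensity trend left 2 lower after CD40L and 1 call after LPS (0 lower), and robust eBayes 2 lower after LPS, 3 called in all. The probe set of largest change gave 9 calls after CD40L (5 higher), and a median difference of 0.028 between CD40L and LPS. The mean of all probe sets gave 3 after CD40L (0 lower) and 1 after LPS (0 lower). With replicates or arrays left out, 3 to 8 members were called after CD40L (2 to 5 higher, 0 to 5 lower) and 0 to 6 after LPS (0 to 4 higher, 0 to 3 lower). Between CD40L and LPS 0 members were called by limma in all these fits. The causes were not tested. Fits that leave some out also hold fewer arrays or probe sets, and the part of this was not tested either. The 8 calls on members kept their sign in all these fits, differences short of the threshold did not all do so, and the median over members after CD40L was −0.034 on quantile-normalized values.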
